A study of Homo sapiens with 24 samples.

Results

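The 46 genes described here code for the machinery that copies DNA and for enzymes that make its building blocks. They were chosen by name, with earlier results of these data already known. Every one of the 46 symbols is a row of the deposited expression table, which lists 26450 genes. The study sequenced RNA from PANC-1 cells, an established line from a human pancreatic duct carcinoma, and from HEK293T cells, an established human embryonic kidney line that carries the SV40 large T antigen. Both were cultured in 4 ways, and 3 libraries were made from each line and way, giving 24: flat culture (2D), AggreWell (a plate of microwells in which cells gather into aggregates), and a dual-axis rotating capillary container (DRCC) turned at 1 rpm or at 30 rpm. No group carries a genetic change or a drug by the labels, which call the PANC-1 source pancreatic duct, the HEK293T source kidney and both lines epithelial. Each line is 1 cell line, so lines stand for themselves and not for tissues. The labels give neither the days in culture nor the number of cells per spheroid. The labels do not say that the 3 libraries of a group came from separate cultures, so the p-values measure the spread between libraries, which may be technical.

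Before a cell divides, origin recognition proteins with CDC6 and CDT1 load rings of MCM2 to MCM7 onto DNA, and CDC45, the GINS proteins and MCM10 turn those rings into working helicases. Primase and DNA polymerases alpha, delta and epsilon then copy both strands, held to DNA by the PCNA clamp that RFC loads, while RPA coats single strands and FEN1 and LIG1 join the lagging-strand pieces. Many of these genes are switched on together before S phase by E2F transcription factors, which the retinoblastoma protein holds back in resting cells.

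Values are FPKM, fragments on a gene scaled by its length in kilobases and by the library's total. Comparing levels between genes therefore depends on the lengths used. For some genes these are far from the longest annotated transcript: the values imply 4180 bases for GMNN and 11245 for RFC3, beside 1262 and 2402. The files allow whole fragments to be recovered, and the libraries held 32021638 to 39556154 of them. All 46 genes were measurable in PANC-1 and 45 in HEK293T, where FAM111B was listed at 0 in all 12 libraries. The 9 PANC-1 markers summed to between 633 and 1076 FPKM in PANC-1 libraries and to at most 12.1 in HEK293T libraries, in which KRT7 and KRT19 were at or near 0. KRT7 and KRT19 were low in PANC-1 too, with format means of 0.82 to 1.53 and 0.79 to 2.75 FPKM. Other markers thus made up most of the PANC-1 sum. The 5 HEK293T markers found summed to between 53.7 and 72.3 FPKM in HEK293T and to between 16.5 and 31.5 in PANC-1. Of these, PAX2 went against its label, with format means of 4.56 to 8.35 FPKM in PANC-1 and 1.36 to 1.83 in HEK293T, and so did LHX1 at 30 rpm (2.51 against 1.12). Markers of other cell types (7 genes of blood, immune and vessel cells) summed to at most 61.9 FPKM in PANC-1, of which CD68, a lysosomal protein, made up nearly everything, and to at most 5.92 in HEK293T. In 3 groups 1 library stood apart from the other 2 over all genes: 2D replicate 1 of PANC-1, 2D replicate 2 of HEK293T and 1 rpm replicate 2 of HEK293T had a chi-square per degree of freedom of 6.76 to 9.81 against their partners, and every other pair of libraries of a group one of 2.81 to 4.46. Tested as described further on, 46 genes were lower in PANC-1 at 1 rpm than in 2D, and 44 lower and 1 higher at 30 rpm, with or without the PANC-1 library. In HEK293T at 1 rpm 19 rose and 23 fell with all libraries or without 2D replicate 2, and 20 rose and 23 fell without 1 rpm replicate 2. The line difference was called for 45 genes at 1 rpm without any 1 of the 3, and for 45 at 30 rpm without either 2D library.

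Promoter sequence was available for 39 of the 46 genes, as 300 bases from 250 before to 50 after each annotated start (RefSeq, GRCh38.p14; 51 promoters, since some genes have more than 1 start). The 8-letter motif TTTNNCGC, the common form of the site that E2F factors bind, was searched on both strands, overlapping matches counted. It occurred in 24 of the 51 promoters (47.1%) and in 23 of the 39 genes (59.0%), against 2418 of all 35116 promoters in the table (6.89%). The motif CCAAT, bound by NF-Y, was in 60.8% of the 51 promoters and in 34.6% of all promoters, and TTTGAA, a core of the cell cycle homology region of mitotic genes, in 1.96% and 15.2%. The stretches below are printed because their genes carry the results that follow. E2F1, CDT1 and PCNA were called in opposite directions in the 2 lines in rotating culture (after median-ratio scaling E2F1 and PCNA not at 1 rpm and PCNA not at 30 rpm); UHRF1, TYMS and GINS2 fell in both lines; MCM6 holds a repeated match; FEN1 had the largest fall against 2D and no match in its window. Each runs 5′ to 3′ on the strand of its gene, with matches to TTTNNCGC, or to its reverse complement, in capitals.
E2F1, chr20:33686386-33686455, minus strand: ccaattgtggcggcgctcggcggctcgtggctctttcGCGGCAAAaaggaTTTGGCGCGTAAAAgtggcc
CDT1, chr16:88803719-88803788, plus strand: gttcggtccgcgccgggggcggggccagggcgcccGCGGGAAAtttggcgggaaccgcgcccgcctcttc
PCNA, chr20:5126623-5126692, minus strand: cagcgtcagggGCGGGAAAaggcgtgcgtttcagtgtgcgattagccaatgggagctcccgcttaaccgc
UHRF1, chr19:4909431-4909500, plus strand: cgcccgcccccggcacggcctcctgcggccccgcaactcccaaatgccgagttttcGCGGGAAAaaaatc
TYMS, chr18:657583-657652, plus strand: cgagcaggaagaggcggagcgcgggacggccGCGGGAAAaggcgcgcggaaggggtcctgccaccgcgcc
GINS2, chr16:85688955-85689024, minus strand: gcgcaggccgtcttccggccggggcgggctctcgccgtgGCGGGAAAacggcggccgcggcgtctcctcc
FEN1, chr11:61792841-61792910, plus strand: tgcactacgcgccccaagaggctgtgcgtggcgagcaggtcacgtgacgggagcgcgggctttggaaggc
MCM6, chr2:135876514-135876613, minus strand: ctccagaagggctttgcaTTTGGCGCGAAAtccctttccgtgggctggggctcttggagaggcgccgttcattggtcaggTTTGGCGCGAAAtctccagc
The first 7 stretches end on the base before the annotated start, and the MCM6 stretch lies from −170 to −71. MCM6 holds the 12 letters TTTGGCGCGAAA at 2 places, each of them a match on both strands. These are letter matches, with no measurement of binding. The medians of genes with and without a match were as follows, with no test. In PANC-1 at 1 rpm against 2D the medians were −1.39 over 23 genes with a match and −1.15 over 16 without, and in HEK293T they were 0.11 and −0.03. At 30 rpm they were −1.14 with a match and −1.18 without in PANC-1, the other order, and 0.12 and 0.02 in HEK293T.

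The first question was how much of each library the 46 genes took up. In PANC-1 their share of fragments was 0.519% ± 0.00138 (SD, n = 3) in 2D and 0.488% ± 0.000411 in AggreWell, and fell to 0.204% ± 0.00185 at 1 rpm and 0.222% ± 0.00105 at 30 rpm. In HEK293T it was 0.773% ± 0.00319, 0.749% ± 0.00607, 0.703% ± 0.00807 and 0.733% ± 0.00473 in the same order. Every PANC-1 library from rotation thus lay below every other library, while the HEK293T formats differed by less. In bulk RNA, fewer cells copying DNA and less of each transcript per cell cannot be told apart. Mitochondrial transcripts moved as well, from 4.33% of fragments in PANC-1 2D to 2.37% at 1 rpm and 1.60% at 30 rpm, and from 4.77% in HEK293T 2D to 3.47% and 4.23%; their part in the results was not tested.

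**Figure D1:**
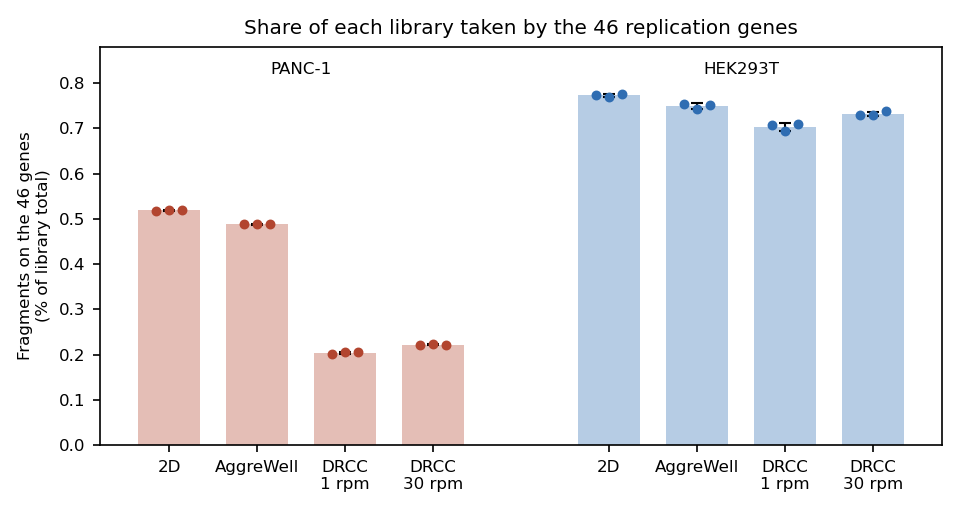
Share of all fragments that fell on the 46 genes, in percent, for the 4 formats of each line. Bars are means, error bars the SD and points the 3 libraries; the 6 PANC-1 DRCC libraries lie near 0.2%, and the 12 HEK293T libraries all lie at 0.694% or above.

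Changes were tested gene by gene with limma on log2(FPKM + 1), with Benjamini-Hochberg adjustment over all genes of a comparison; a gene was called at an adjusted p under 0.05, and changes are given on that log2 scale with their SE. In PANC-1, all 46 genes were lower at 1 rpm than in 2D, where 33.9% of the 11585 genes tested were called lower and 52.3% higher. The median of the 46 was −1.33, beside 0.15 for all genes, and 28 of them fell at least 2-fold, as did 3.72% of all genes. At 30 rpm 44 of 46 were lower and 1 higher, against 32.2% and 53.6% of all genes, with a median of −1.17 beside 0.17, and 27 fell at least 2-fold, as did 3.26% of all genes. The exceptions there were RFC4, which was higher, and ORC6, which was not called. In HEK293T the 45 genes tested split: at 1 rpm 19 rose and 23 fell, where 53.1% of 12548 genes rose and 31.7% fell, and at 30 rpm again 19 rose and 23 fell (49.6% and 35.5% of all genes). Their medians were −0.13 and −0.12, beside 0.18 and 0.13 over all genes, and these depend on the scaling. They came to −0.35 and −0.28 with median-ratio scaling (all genes near 0). Quantile normalization gave −0.00130 and 0.00604, where all genes stood lower, at −0.05 and −0.05. With a trend on GC content and transcript length removed they came to 0.00919 and −0.00377, below all genes at 0.18 and 0.13. UHRF1 fell at least 2-fold at both speeds and TYMS at 30 rpm, as did 2.67% and 3.87% of all genes. RFC4 and CLSPN rose at least 2-fold at both speeds and CDT1 and PRIM1 at 30 rpm, as did 12.2% and 11.6%. With libraries scaled by median ratios, 9 of the HEK293T genes were called higher at 1 rpm; that scaling moves the median of all genes to near 0 and their calls from 6666 higher and 3976 lower to 5342 and 5264, and in PANC-1 at 1 rpm from 6063 and 3922 to 4936 and 4942.

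**Figure D2:**
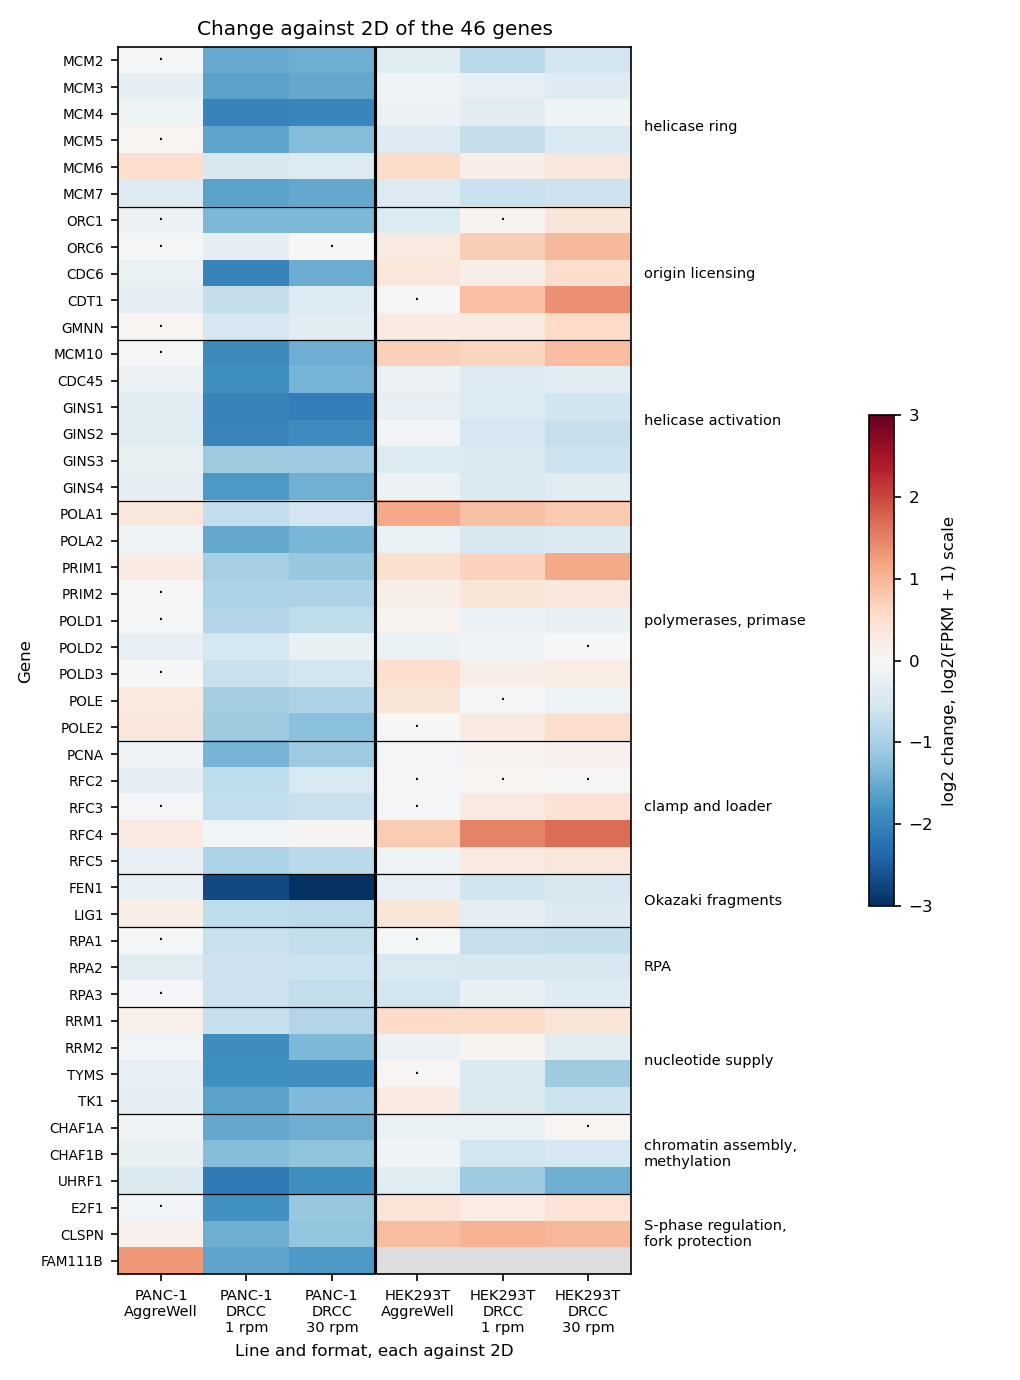
Change against 2D of each of the 46 genes (rows, grouped by role) in AggreWell, DRCC 1 rpm and DRCC 30 rpm, for PANC-1 (3 columns at left) and HEK293T (3 at right), as log2 change on the log2(FPKM + 1) scale. Dots mark changes that did not pass the test and grey cells FAM111B in HEK293T, which was not tested. The PANC-1 DRCC columns are blue almost throughout, with medians of −1.33 and −1.17. The HEK293T columns mix both colours, and weak changes there depend on the scaling (CDC6, MCM6, ORC1, PCNA, RFC2 and RRM2 at 1 rpm turn negative with median-ratio scaling).

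The 6 subunits of the helicase ring fell in PANC-1 in both rotating formats, with medians of −1.59 and −1.50. MCM4 was at 54.4, 52.9 and 53.0 FPKM in the 2D libraries, 49.1, 50.2 and 47.0 in AggreWell, 12.6, 13.0 and 12.1 at 1 rpm and 12.6, 13.2 and 13.0 at 30 rpm. All 6 of its DRCC values therefore lay far under the lowest AggreWell value, and the 2 speeds overlapped. MCM6 was the mildest member, at 28.1, 29.1 and 28.4 FPKM in 2D, 41.0, 40.9 and 41.4 in AggreWell, 20.5, 19.5 and 20.4 at 1 rpm and 22.4, 20.8 and 20.9 at 30 rpm. It was the ring subunit that rose in PANC-1 AggreWell (0.51 ± 0.03, adjusted p = 1e-08), then stood below 2D by 0.48 ± 0.03 at 1 rpm. MCM2, MCM3, MCM5 and MCM7 changed by −1.51, −1.60, −1.59 and −1.61 at 1 rpm.

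In HEK293T the same ring was far more abundant and changed less, with 5 of 6 subunits lower at each speed. MCM7 was the highest of them, at 252, 247 and 252 FPKM in 2D, 193, 185 and 186 in AggreWell, 159, 154 and 161 at 1 rpm and 159, 157 and 162 at 30 rpm. Its 2 speeds overlapped, and every DRCC value lay below every AggreWell value. MCM2 (−0.81 ± 0.02 at 1 rpm) and MCM5 (−0.72 ± 0.04) moved in step with it, whereas MCM3 (−0.24 ± 0.02) and MCM4 (−0.31 ± 0.02) changed little; quantile normalization brought MCM3 to 0.02 at 1 rpm and MCM4 to 0.20 at 30 rpm. MCM6 was higher than in 2D in all 3 other formats, by 0.55 ± 0.03 in AggreWell, 0.20 ± 0.03 at 1 rpm and 0.34 ± 0.03 at 30 rpm, although its 1 rpm value became −0.00814 with median-ratio scaling. The highest subunit stood 6.82 times above the lowest in HEK293T 2D, 4.57 times in AggreWell, 4.87 times at 1 rpm and 4.05 times at 30 rpm. In PANC-1 the ratio was 3.43, 2.52, 3.58 and 3.01 in the same order. Loaded rings hold the 6 subunits in equal number, but these are transcript levels.

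The origin recognition and licensing group held 5 genes, among them the licensing inhibitor GMNN. Of these, 4 were called lower in PANC-1 and higher in HEK293T at each speed (2 at 1 rpm with median-ratio scaling). Of all genes tested in both lines, 8.34% were called so at 1 rpm and 9.10% at 30 rpm. CDT1, which brings MCM rings to origins, was at 13.6, 12.9 and 12.7 FPKM in PANC-1 2D, 10.9, 9.55 and 11.2 in AggreWell, 6.91, 7.98 and 8.07 at 1 rpm and 9.50, 9.80 and 9.43 at 30 rpm. In HEK293T it was at 73.0, 67.1 and 71.0 FPKM in 2D, 69.0, 67.4 and 71.8 in AggreWell, 133, 131 and 135 at 1 rpm and 180, 181 and 187 at 30 rpm. Each HEK293T format in rotation lay wholly above 2D, while in PANC-1 each lay wholly below it. The changes at 30 rpm were −0.41 ± 0.06 (adjusted p = 1.8e-05) and 1.36 ± 0.03 (adjusted p = 5.5e-13). GMNN, the protein that blocks CDT1, rose in HEK293T as well but by less (0.27 ± 0.03 and 0.59 ± 0.03), so that the ratio of CDT1 to GMNN in FPKM went from 3.83 in 2D through 3.17 in AggreWell to 5.95 at 1 rpm and 6.48 at 30 rpm. In PANC-1 both fell in rotation and the mean ratio per format lay between 0.776 and 0.997. The size of these ratios depends on the lengths used, 2664 bases for CDT1 and 4180 for GMNN.

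CDC6, the loader that acts with CDT1, was at 22.2, 22.8 and 22.3 FPKM in HEK293T 2D, 28.5, 28.1 and 28.7 in AggreWell, 25.2, 25.0 and 25.5 at 1 rpm and 33.3, 32.4 and 32.3 at 30 rpm. No 2 of these formats overlapped, though the rise at 1 rpm (0.16 ± 0.03) turned to −0.04 with median-ratio scaling. In PANC-1 it went from 16.8, 17.7 and 18.9 in 2D to 5.94, 5.80 and 5.43 at 30 rpm (−1.48 ± 0.05) and lower still at 1 rpm. ORC6, a subunit of the origin recognition complex, was with RFC4 the gene that rotation changed least in PANC-1, at 13.8, 14.2 and 14.6 FPKM in 2D, 11.2, 11.3 and 11.9 at 1 rpm and 15.8, 14.3 and 13.3 at 30 rpm, where it overlapped 2D. In HEK293T it rose at every step, from a mean of 41.4 ± 0.661 FPKM (SD, n = 3) in 2D to 82.5 ± 1.53 at 30 rpm (0.98 ± 0.03). ORC1, the largest subunit of that complex, fell in PANC-1 by 1.35 ± 0.08 and 1.34 ± 0.08 and was not called in HEK293T at 1 rpm (0.08 ± 0.04, adjusted p = 0.11), then was higher at 30 rpm (0.35 ± 0.04).

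The genes that activate the loaded helicase had the lowest group median in PANC-1 at 1 rpm (−1.88), with −1.46 at 30 rpm. MCM10, which starts unwinding, was at 10.4, 10.5 and 10.5 FPKM in 2D, 10.6, 9.50 and 9.88 in AggreWell, 2.00, 2.12 and 1.97 at 1 rpm and 3.18, 3.16 and 3.04 at 30 rpm. It was therefore lowest at 1 rpm, and 30 rpm stood wholly above 1 rpm (0.45 ± 0.04, adjusted p = 7.7e-07). In HEK293T it took the other course, at 13.6, 14.2 and 14.3 FPKM in 2D, 24.3, 24.1 and 23.1 in AggreWell, 21.7, 22.5 and 23.1 at 1 rpm and 28.2, 27.6 and 27.4 at 30 rpm. All 9 values of the other formats lay above 2D there.

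CDC45 and the 4 GINS genes, whose proteins complete the active helicase with the MCM ring, fell in both lines in rotation, by 1.07 to 2.00 in PANC-1 and by 0.39 to 0.51 in HEK293T at 1 rpm. GINS2 was at 14.6, 12.9 and 14.1 FPKM in PANC-1 2D and at 2.80, 3.09 and 2.34 at 1 rpm, and at 44.6, 44.9 and 43.8 in HEK293T 2D and 30.9, 30.9 and 30.7 at 1 rpm. MCM10 was thus the 1 gene of this group that went against the others in HEK293T. The 4 GINS proteins form a complex with 1 copy of each; their transcripts differed 4.90-fold between the highest and the lowest in PANC-1 2D and 2.93-fold at 1 rpm, and between 1.51-fold and 1.86-fold in every HEK293T format.

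Polymerase and primase genes fell in PANC-1 in rotation (9 of 9 at each speed, medians −0.96 and −0.92), and 4 of them rose in AggreWell, where 45.9% of all genes rose. POLA1, the catalytic subunit of polymerase alpha, was at 2.65, 2.51 and 2.67 FPKM in 2D, 3.66, 3.38 and 3.69 in AggreWell, 1.05, 1.25 and 1.18 at 1 rpm and 1.35, 1.54 and 1.38 at 30 rpm. POLE and POLE2 of polymerase epsilon and the primase gene PRIM1 were likewise higher in AggreWell and lower at 1 rpm, at 0.30 ± 0.04, 0.35 ± 0.06 and 0.24 ± 0.03 above 2D in AggreWell and at −1.02, −1.07 and −1.004 at 1 rpm. From 1 rpm to 30 rpm POLA1 was called higher (0.17 ± 0.05), POLE2 and PRIM1 lower (−0.19 and −0.13), and POLE was not called. POLD2, the regulatory subunit of polymerase delta, changed least at 30 rpm, by −0.22 ± 0.04.

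In HEK293T the polymerase genes divided by subunit. POLA1 was at 4.77, 4.79 and 4.58 FPKM in 2D, 11.7, 11.5 and 11.7 in AggreWell, 9.50, 9.31 and 9.52 at 1 rpm and 8.51, 9.23 and 8.61 at 30 rpm. Its 2D values stood apart from all 9 others, and its rise in AggreWell (1.15 ± 0.04) was the largest of the 45 genes there. Its partner POLA2, the accessory subunit of the same enzyme, went the other way at 1 rpm (−0.48 ± 0.04). PRIM1 rose with each format, from 24.1, 23.4 and 23.1 FPKM in 2D through 33.0, 32.0 and 34.1 in AggreWell and 37.8, 37.6 and 39.9 at 1 rpm to 53.8, 53.0 and 53.0 at 30 rpm. No 2 of those groups overlapped. At 1 rpm POLA1, PRIM1, PRIM2, POLD3 and POLE2 were higher and POLA2, POLD1 and POLD2 lower, with POLE not called (−0.05 ± 0.04); PRIM2 came to −0.00130 and POLD2 to 0.13 after quantile normalization.

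The clamp PCNA, which holds polymerases on DNA, was among the most abundant of the 46. In PANC-1 it was at 209, 199 and 196 FPKM in 2D, 190, 185 and 180 in AggreWell, 76.4, 77.1 and 75.1 at 1 rpm and 94.8, 93.6 and 94.2 at 30 rpm. It fell at both speeds, less at 30 rpm (0.30 ± 0.03 above 1 rpm, adjusted p = 5.1e-07). In HEK293T the 12 libraries lay between 221 and 259 FPKM, and the change of 0.11 ± 0.02 at 1 rpm, though called, became −0.11 with median-ratio scaling.

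Of the clamp loader genes, RFC4 stood apart in both lines. In PANC-1 it was at 47.2, 47.5 and 46.02 FPKM in 2D, 57.7, 56.1 and 57.7 in AggreWell, 42.4, 44.9 and 45.3 at 1 rpm and 49.3, 49.2 and 49.4 at 30 rpm. It stood a little under 2D at 1 rpm (−0.08 ± 0.03, adjusted p = 0.012) and a little over it at 30 rpm (0.07 ± 0.03, adjusted p = 0.027), and scaling decides these signs: 0.01 at 1 rpm after quantile normalization and −0.13 at 30 rpm after median-ratio scaling. Removing the trend of each library on GC content and transcript length, an alternative added after the data were seen, gave 0.22 and 0.33. The call at 1 rpm was lost without 1 rpm replicate 1 (adjusted p = 0.0734), and that at 30 rpm without 2D replicate 3 (0.0957), 30 rpm replicate 1 (0.0579) or 30 rpm replicate 3 (0.06). In HEK293T RFC4 showed the largest rise of the 45 genes at both speeds, from 23.97, 25.5 and 23.9 FPKM in 2D through 42.3, 40.0 and 45.2 in AggreWell to 70.0, 70.1 and 70.5 at 1 rpm and 78.4, 80.9 and 83.6 at 30 rpm (1.48 ± 0.04 and 1.69 ± 0.04). RFC2, RFC3 and RFC5 fell in PANC-1 at 1 rpm by 0.77, 0.73 and 0.95. In HEK293T RFC5 rose by 0.25 ± 0.03 at 1 rpm, RFC2 was not called (0.07 ± 0.03, adjusted p = 0.069) and RFC3, at 10.7, 13.6 and 10.7 FPKM in 2D and 13.8, 16.0 and 13.2 at 1 rpm, was called higher although the groups overlapped (0.28, adjusted p = 0.00615). The highest RFC3 value of each group came from replicate 2, the library that stood apart; the change was 0.39 (adjusted p = 7.87e-05) without that of 2D and 0.20 (adjusted p = 0.033) without that of 1 rpm. The call was lost with median-ratio scaling (0.08), quantile normalization (0.09) and the GC and length trend removed (−0.08).

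FEN1, the nuclease that trims lagging-strand flaps, fell further at 30 rpm than at 1 rpm in PANC-1. It was at 71.7, 72.3 and 74.5 FPKM in 2D, 61.7, 58.9 and 62.8 in AggreWell and 8.38, 9.26 and 7.76 at 30 rpm, a change of −2.97 ± 0.06 (adjusted p = 3e-14) and the largest of the 46 against 2D. In HEK293T it was at 99.7, 96.7 and 98.7 FPKM in 2D and 71.3, 69.5 and 69.5 at 30 rpm (−0.48 ± 0.03). The 1 rpm and 30 rpm values of PANC-1 did not overlap. LIG1, the ligase that seals the pieces, moved less and in the same directions in both lines: in AggreWell by 0.20 ± 0.04 in PANC-1 and 0.36 ± 0.06 in HEK293T, and at 1 rpm by −0.76 ± 0.04 and −0.29 ± 0.06.

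RPA, the trimer that coats single-stranded DNA, contained the 1 gene whose response to rotation did not differ by test between the lines. RPA1 was at 50.9, 52.4 and 51.3 FPKM in PANC-1 2D and 31.3, 32.5 and 32.4 at 1 rpm, and at 46.8, 47.3 and 47.3 in HEK293T 2D and 29.7, 27.6 and 29.6 at 1 rpm. It fell by 0.67 ± 0.03 and 0.69 ± 0.03, and the difference between the lines was −0.02 ± 0.04 (adjusted p = 0.74) at 1 rpm and 0.00 ± 0.04 (adjusted p = 0.95) at 30 rpm. RPA2 fell in both lines too (−0.63 ± 0.03 and −0.48 ± 0.02 at 1 rpm), as did RPA3 (−0.64 ± 0.06 and −0.22 ± 0.06), each more in PANC-1 by the test of the difference (0.15 ± 0.03 and 0.41 ± 0.09).

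Nucleotide supply genes were the most abundant group in PANC-1, with a summed level of 595 FPKM in 2D and 198 at 1 rpm. TYMS, which makes thymidylate, alone held 17.0% of the FPKM of the 46 genes in PANC-1 2D. It was at 309, 310 and 314 FPKM in 2D, 261, 263 and 259 in AggreWell, 87.4, 85.1 and 85.7 at 1 rpm and 86.4, 85.6 and 88.2 at 30 rpm. The 2 speeds overlapped in PANC-1 (0.01 ± 0.02 apart, adjusted p = 0.66). HEK293T differed between the speeds, at 114, 115 and 117 FPKM in 2D, 116, 115 and 120 in AggreWell, 87.5, 80.9 and 87.9 at 1 rpm and 54.9, 54.3 and 55.4 at 30 rpm, where the change against 2D was −1.06 ± 0.03. ENOSF1 overlaps TYMS on the other strand over 39.1% of the exon bases of TYMS, and no source used here states whether the counting used strand; ENOSF1, named because of this overlap, averaged 5.61 FPKM.

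Ribonucleotide reductase, which makes all deoxynucleotides, consists of a large subunit from RRM1 and a small one from RRM2. RRM2 was at 122, 128 and 124 FPKM in PANC-1 2D, 119, 121 and 117 in AggreWell, 33.7, 34.6 and 33.4 at 1 rpm and 48.3, 49.1 and 48.8 at 30 rpm, while RRM1 was at 90.5, 88.1 and 90.4, then 98.6, 101 and 99.8, then 55.5, 56.0 and 55.3, then 48.5, 48.4 and 47.2. The ratio of RRM2 to RRM1 in FPKM accordingly went from 1.39 in 2D to 0.610 at 1 rpm and back to 1.02 at 30 rpm. In HEK293T RRM1 rose in all 3 formats (0.57 ± 0.03 in AggreWell, 0.55 ± 0.03 at 1 rpm, 0.35 ± 0.03 at 30 rpm), RRM2 fell in AggreWell and at 30 rpm, and the ratio was 1.57 in 2D, 0.923 in AggreWell, 1.13 at 1 rpm and 0.969 at 30 rpm. The called rise of RRM2 at 1 rpm (0.08 ± 0.02) became −0.13 with median-ratio scaling. TK1, the salvage kinase for thymidine, fell in PANC-1 in every format and in HEK293T rose in AggreWell (0.24 ± 0.03) before falling by 0.42 ± 0.03 and 0.63 ± 0.03 in rotation.

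UHRF1, which guides maintenance methylation to freshly copied DNA, was the member with the largest fall in HEK293T at both speeds. It was at 36.3, 39.3 and 36.3 FPKM in 2D, 28.6, 29.04 and 29.1 in AggreWell, 16.9, 16.7 and 17.6 at 1 rpm and 13.0, 12.3 and 13.4 at 30 rpm. PANC-1 went the same way, from 24.3, 23.9 and 24.7 in 2D through 17.7, 17.6 and 18.2 in AggreWell to 4.38, 5.01 and 5.16 at 1 rpm and 6.43, 5.95 and 5.68 at 30 rpm. No 2 formats overlapped in either line. The 2 genes of the chromatin assembly factor, CHAF1A and CHAF1B, fell in PANC-1 by 1.54 ± 0.04 and 1.30 ± 0.05 at 1 rpm; in HEK293T CHAF1B fell by 0.55 ± 0.04, and CHAF1A, lower by 0.21 ± 0.04 at 1 rpm, was not called at 30 rpm.

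E2F1, the transcription factor that drives many of these genes, was at 23.7, 23.0 and 23.7 FPKM in PANC-1 2D, 22.5, 21.7 and 22.1 in AggreWell, 5.25, 6.31 and 6.33 at 1 rpm and 9.63, 10.7 and 9.97 at 30 rpm. Among the 46 it had the largest gain from 1 rpm to 30 rpm in PANC-1 (0.68 ± 0.06, adjusted p = 1.8e-07). HEK293T stood at 28.7, 27.7 and 27.9 FPKM in 2D, 36.1, 36.7 and 38.6 in AggreWell, 33.2, 31.6 and 33.8 at 1 rpm and 37.7, 37.5 and 38.1 at 30 rpm, all 9 above 2D, though its rise at 1 rpm (0.22) came to 0.01 with median-ratio scaling and was not called. CLSPN, the adaptor that carries the checkpoint signal at stalled forks, rose in HEK293T in every format (0.93 ± 0.04, 1.05 ± 0.04 and 1.01 ± 0.04), from 5.47, 5.19 and 5.19 FPKM in 2D to 10.9, 11.1 and 11.01 in AggreWell, 12.3, 11.4 and 12.3 at 1 rpm and 11.5, 11.7 and 11.7 at 30 rpm. PANC-1 fell from 9.98, 10.7 and 9.76 in 2D to 3.05, 3.24 and 2.88 at 1 rpm.

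FAM111B, a nuclear trypsin-like protease gene, differed more between formats in PANC-1 than any other of the 46 genes. It was at 5.52, 6.44 and 6.57 FPKM in 2D, 17.4, 16.6 and 16.2 in AggreWell, 1.36, 1.45 and 1.42 at 1 rpm and 1.22, 1.16 and 1.17 at 30 rpm. It was the only one of the 46 to rise at least 2-fold in AggreWell (1.31 ± 0.05), as did 1.22% of all genes, and lay 14.1-fold lower at 30 rpm than in AggreWell. With 0 fragments in all HEK293T libraries, its line difference only repeats the PANC-1 change.

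**Figure D3:**
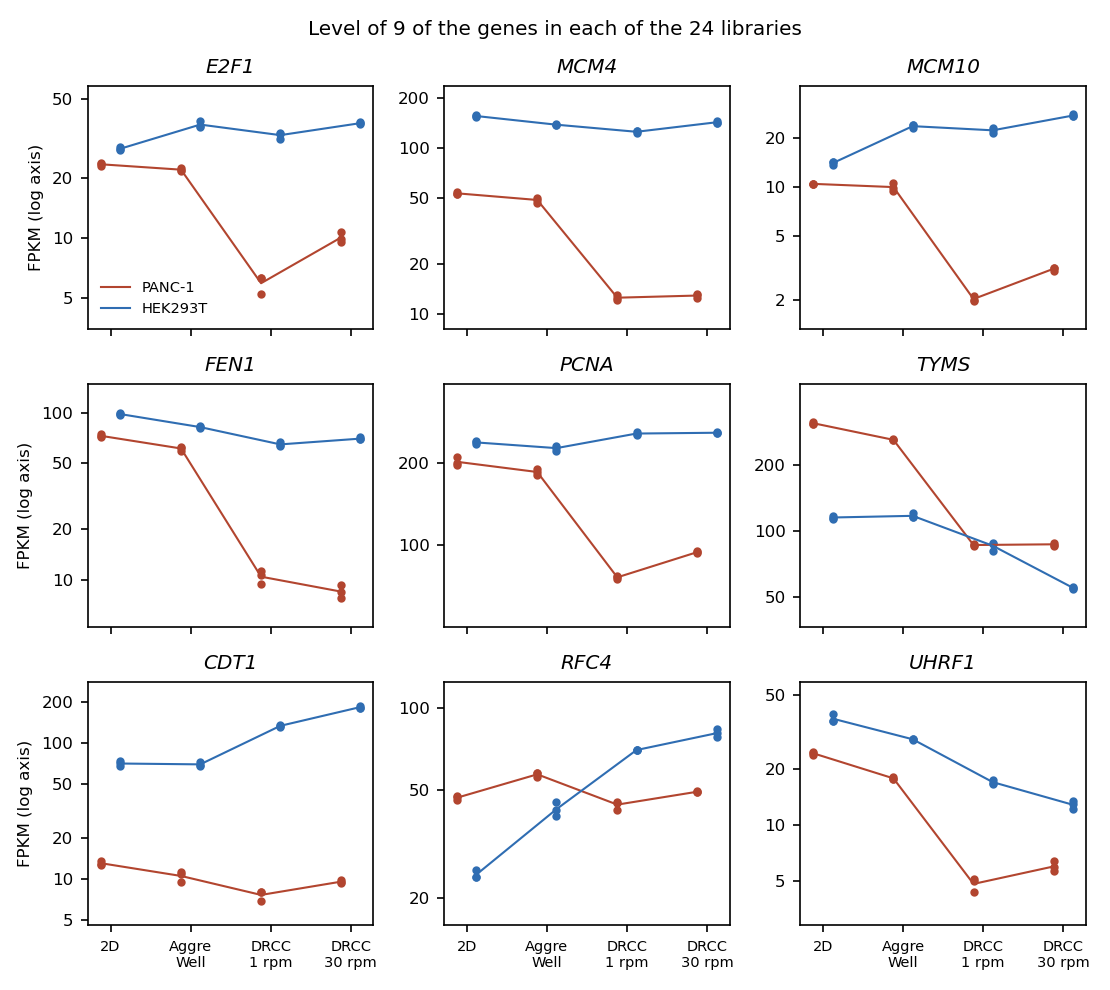
Level of 9 of the genes in FPKM (log axis) in each of the 24 libraries, by format; points are libraries and lines join the means of 3. In PANC-1 (red) E2F1, MCM4, MCM10, FEN1, PCNA, TYMS and UHRF1 drop between AggreWell and DRCC 1 rpm and CDT1 drops less, whereas in HEK293T (blue) CDT1 and RFC4 climb to 183 and 81.0 FPKM at 30 rpm and UHRF1 and TYMS fall; the small PCNA rise of HEK293T changes sign with median-ratio scaling.

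AggreWell culture gathers cells without rotation. In PANC-1 10 of the 46 genes rose, 23 fell and 13 were not called, against 45.9% and 24.1% of all genes. The median was −0.10, beside 0.10 over all genes. The rises were FAM111B, MCM6, POLE2, POLA1, POLE, RFC4, PRIM1, LIG1, RRM1 and CLSPN (not called without 2D replicate 1 or 3 or AggreWell replicate 1 or 2, adjusted p from 0.0576 to 0.0841), and none of the 46 fell 2-fold, as 0.224% of all genes did. In HEK293T 17 rose and 22 fell, against 48.6% and 26.8%, with a median of −0.06 beside 0.12, and POLA1 rose at least 2-fold, as did 5.43% of all genes. Several small values there depend on scaling, since CDT1, MCM3, MCM4, PCNA and RFC2 turned positive after quantile normalization and POLD1, POLE2 and TYMS negative after median-ratio scaling. With the GC and length trend removed, 14 genes were called lower.

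Because the comparisons against 2D share the 2D libraries, rotation was also set against AggreWell. In PANC-1 all 46 genes were lower at 1 rpm than in AggreWell (38.4% of all genes; 43.7% were higher; median −1.26 beside 0.03), and 43 at 30 rpm (37.8%; 45.4% were higher; −1.10 beside 0.05), with ORC6, CDT1 and POLD2 not called. At least 2-fold lower were 28 and 27 of them, as were 3.03% and 3.30% of all genes, and none was 2-fold higher, as 5.17% and 6.65% of all genes were. In HEK293T 14 rose and 25 fell at 1 rpm (41.8% and 33.8% of all genes), and 18 rose and 23 fell at 30 rpm (39.9% and 38.7%). CDT1 rose most there at 30 rpm (1.38 ± 0.03) and UHRF1 fell most (−1.11 ± 0.04).

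The 2 speeds were compared directly. In PANC-1 23 of the 46 genes were higher at 30 rpm than at 1 rpm, 5 lower and 18 not called, against 36.2% and 31.9% of all genes; the median was 0.10 and none moved 2-fold, as 0.760% of all genes did upward and 0.319% downward. The gains were led by E2F1 (0.68), CDC6 (0.52), RRM2 (0.51), MCM10 (0.45) and CDC45 (0.44), and the 5 lower genes were FEN1 (−0.27), RRM1 (−0.21), POLE2 (−0.19), FAM111B (−0.14) and PRIM1 (−0.13). FAM111B was not called there without 1 rpm replicate 2 or 3 or 30 rpm replicate 2 or 3 (adjusted p from 0.069 to 0.0853). In HEK293T 18 were higher and 12 lower, against 19.6% and 32.9% of all genes, led by PRIM1 (0.46) and CDT1 (0.45) above and TYMS (−0.63), RRM2 (−0.41) and UHRF1 (−0.38) below. CDC6, CDT1, E2F1, MCM10 and ORC6 were among those higher at 30 rpm in both lines. Of the 5 genes of origin recognition and licensing, the inhibitor GMNN included, 4 were higher at 30 rpm in PANC-1 and all 5 in HEK293T.

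The difference between lines was tested as the HEK293T change minus the PANC-1 change over all 24 libraries. At both speeds 45 of the 46 genes differed, all with the larger value in HEK293T, against 40.0% of 13392 genes higher and 35.8% lower at 1 rpm and 37.5% and 42.0% at 30 rpm. FAM111B, at 0 in all HEK293T libraries, is among the 45, and its difference only repeats its PANC-1 change. The median differences were 1.26 and 1.08, beside 0.03 and −0.04 over all genes, and the exception was RPA1. The widest gaps at 1 rpm were those of MCM10 (2.56 ± 0.05), CLSPN (2.51 ± 0.06), CDC6 (2.17 ± 0.05), FEN1 (2.10 ± 0.07) and E2F1 (2.04 ± 0.07). At 30 rpm they were FEN1 (2.48 ± 0.07), MCM10 (2.41 ± 0.05), PRIM1 (2.28 ± 0.05), CLSPN (2.20 ± 0.06) and CDC6 (2.01 ± 0.05). In AggreWell 20 differed upward and 9 downward (32.0% and 25.0% of all genes), with a median of 0.09.

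Some genes were called in opposite directions in the lines, lower in PANC-1 and higher in HEK293T: 2 in AggreWell (3.90% of the 10752 genes tested in both), 19 at 1 rpm (8.34%) and 17 at 30 rpm (9.10%). None was called the other way round. In AggreWell the count is near the share of all genes and depends on the scaling: it was 6 with median-ratio scaling, 9 with quantile normalization and 7 with the GC and length trend removed, each time with 1 further gene called the other way round. The 19 at 1 rpm were CDC6, CDT1, GMNN and ORC6 of licensing, MCM6 and MCM10 of the helicase, POLA1, POLD3, POLE2, PRIM1 and PRIM2 of the polymerases, PCNA, RFC3, RFC4 and RFC5 of the clamp and its loader, RRM1 and RRM2, and E2F1 and CLSPN. With median-ratio scaling 9 of the 19 remained at 1 rpm (CDT1, CLSPN, MCM10, ORC6, POLA1, PRIM1, PRIM2, RFC4 and RRM1), and 15 of the 17 at 30 rpm. The genes that rose in HEK293T at 1 rpm had a lower GC content in their longest transcript (median 43.7%, range 39.1 to 64.9%) than those that fell (median 51.6%, range 41.4 to 65.0%). With the GC and length trend removed from each library, 20 rose and 17 fell in HEK293T at 1 rpm, 15 of the 19 opposite calls remained, and 45 of 46 line differences were called at both speeds.

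**Figure D4:**
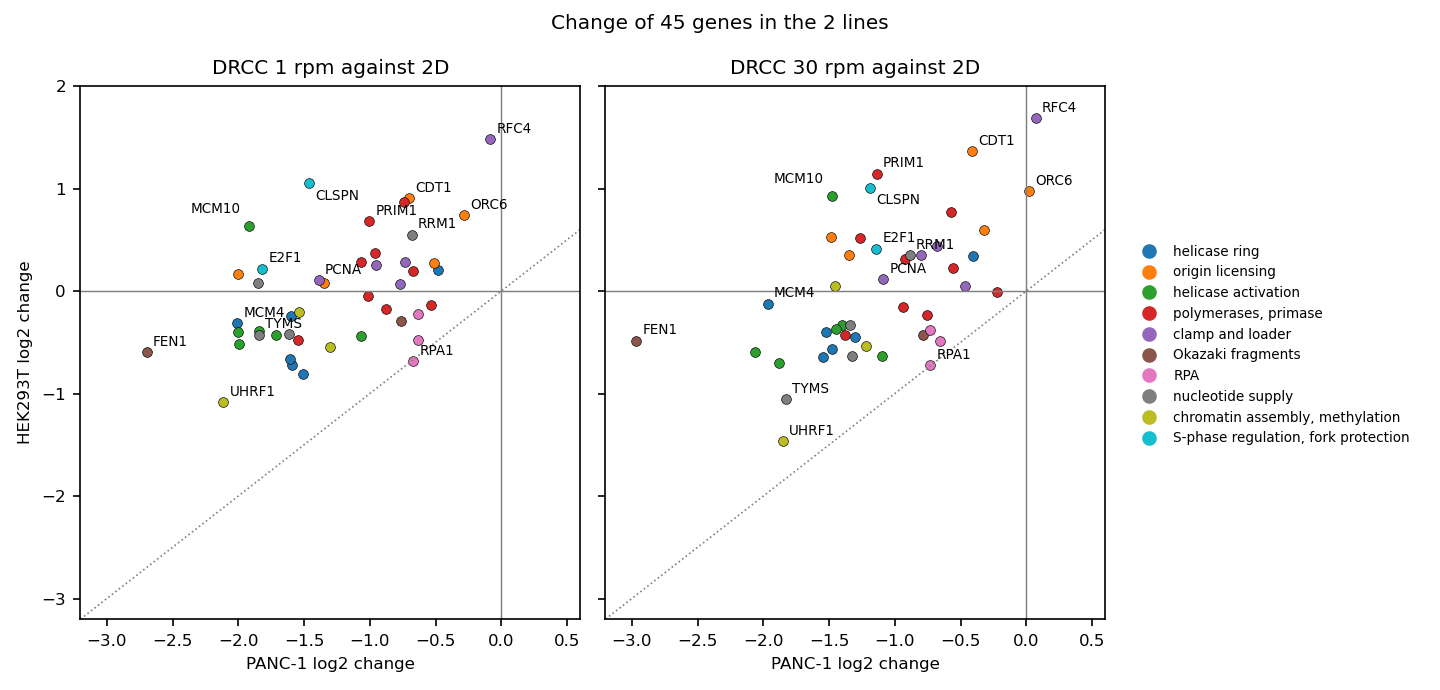
Log2 change against 2D in PANC-1 (x axis) and HEK293T (y axis) of the 45 genes tested in both, at DRCC 1 rpm (left) and 30 rpm (right), coloured by role, on the log2(FPKM + 1) scale; the dotted line marks equal change. All points but RPA1 lie above that line, and RPA1 lies on it. The upper left field holds genes lower in PANC-1 and higher in HEK293T. Of these, CDC6, MCM6, ORC1, PCNA, RFC2 and RRM2 move below 0 on the y axis at 1 rpm with median-ratio scaling.

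Other genes of the same process were read from named lists at 1 rpm against 2D, where 52.3% of all genes rose and 33.9% fell in PANC-1, and 53.1% rose and 31.7% fell in HEK293T. For these lists and those that follow, the scaling and the GC and length alternatives were not read. Of 31 further fork and origin genes, 10 rose and 20 fell in PANC-1 (median −0.49), and 20 rose and 8 fell in HEK293T (median 0.22). In PANC-1 the histone chaperone ASF1B went from 21.6 to 6.06 FPKM (−1.68 ± 0.06) and the maintenance methyltransferase DNMT1 from 49.3 to 17.6 (−1.44 ± 0.03). In HEK293T WDHD1, which ties polymerase alpha to the helicase, went from 2.68 to 21.0 FPKM (2.58 ± 0.05), ATAD5, which unloads PCNA, from 0.902 to 8.57 (2.33 ± 0.06), and RFC1, the large clamp loader subunit, from 7.76 to 30.5 (1.85 ± 0.04). Of 20 further nucleotide genes, 15 fell in PANC-1 and 13 in HEK293T, and 5 and 6 rose. CTPS1, a CTP synthase, fell in PANC-1 from 116 to 28.6 FPKM (−1.98 ± 0.02). RRM2B, the reductase subunit used outside S phase, rose in HEK293T from 4.31 to 12.8 FPKM (1.38 ± 0.10).

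Of 29 regulators of the G1 to S step, 24 fell and 4 rose in PANC-1 at 1 rpm (median −0.69), and 8 fell and 17 rose in HEK293T (0.19), the latter near the shares of all genes. By the test of the line difference 24 of the 29 had the larger value in HEK293T and 2 the smaller, against 40.0% and 35.8% of all genes. CDC25A, the phosphatase that activates CDK2, dropped in PANC-1 from 18.5 to 2.40 FPKM (−2.52 ± 0.05), cyclin D1 (CCND1) from 158 to 40.4 (−1.94 ± 0.03) and the E2F partner TFDP1 from 67.4 to 17.5 (−1.88 ± 0.04). In HEK293T cyclin D2 (CCND2) rose from 7.23 to 27.0 FPKM and RBL1, an RB relative, from 2.15 to 8.33. Of 11 checkpoint genes, 6 rose and 4 fell in PANC-1 (0.12), near the shares of all genes, and 10 rose and 1 fell in HEK293T (0.65), where the kinase ATR went from 1.14 to 5.22 FPKM and its activator TOPBP1 from 8.57 to 28.1. Of the CDK inhibitors and arrest genes, 5 of 7 rose and 2 fell in PANC-1 (median 1.09), and 5 of 8 rose and 1 fell in HEK293T (0.73). That list holds GADD45A and BTG2, which are not CDK inhibitors and are named for that reason; of the CDK inhibitors alone, 3 of 5 rose and 2 fell in PANC-1 and 4 of 6 rose and 1 fell in HEK293T. CDKN1C went from 0.810 to 10.3 FPKM in PANC-1 and CDKN1B from 14.2 to 47.1, CDKN2C fell from 38.9 to 13.7, and the stress gene GADD45A went from 30.6 to 188 in HEK293T. Mitosis genes numbered 29: 21 fell and 7 rose in PANC-1 (−0.71), and 9 fell and 17 rose in HEK293T (0.73), where TOP2A rose from 10.4 to 78.5 FPKM. The HEK293T count of mitosis genes is near the share of all genes, and 28 of the 29 had the larger value in HEK293T by the test of the line difference.

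**Figure D5:**
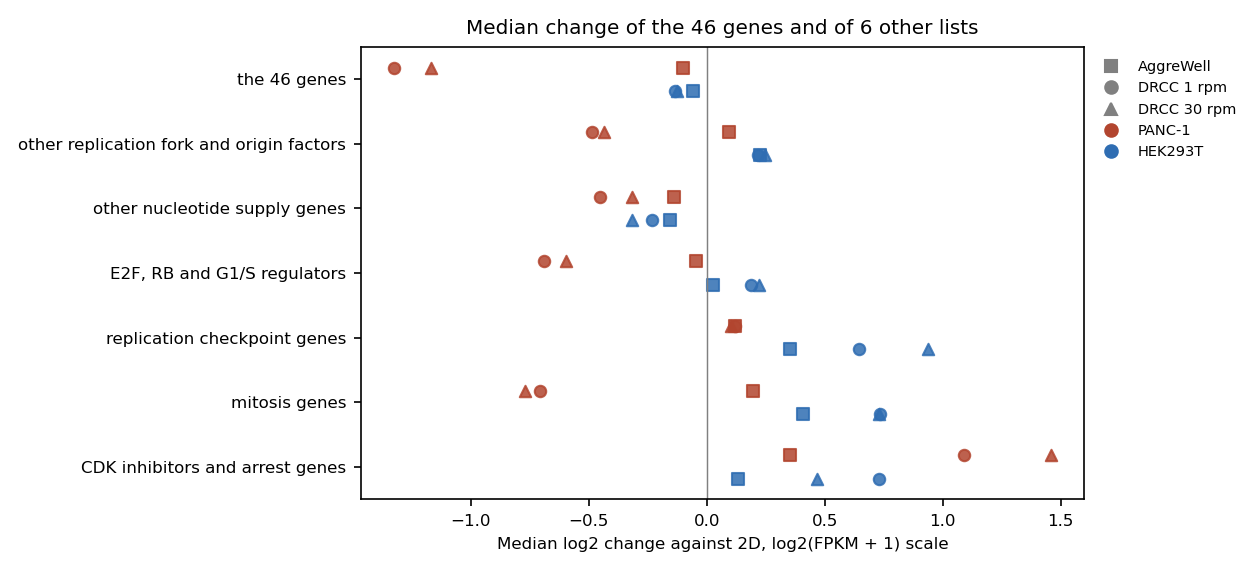
Median log2 change against 2D of the 46 genes and of 6 other lists, for AggreWell (squares), DRCC 1 rpm (circles) and DRCC 30 rpm (triangles) in PANC-1 (red) and HEK293T (blue), on the log2(FPKM + 1) scale. The 46 genes have the lowest PANC-1 medians (−1.33 and −1.17) at 1 rpm and 30 rpm, and the list of CDK inhibitors and arrest genes the highest (1.09 and 1.46); medians of all genes lie between 0.10 and 0.18 and move to near 0 with median-ratio scaling.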

How the data were processed

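RNA from 24 libraries (2 lines, 4 formats, 3 libraries each) was prepared with TRIzol and a VAHTS Universal V10 kit, per the labels' protocols. Expression came as 1 table, deposited in FPKM, with 26450 rows. The submitters' processing notes list R 3.2.0 and the programs HTSeq, HISAT2 and fastp, and name the build mm10, a mouse build, although the symbols are human; no coordinate was taken from the table. No source used here states the strand setting, and 21 of the 46 genes share exon bases with another annotated gene (GENCODE v29).

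The 46 genes and all lists were chosen with earlier results of these data known. A gene entered a fit if 3 or more libraries reached 1 FPKM, and limma 3.58.1 (R 4.3.3, intensity trend) was fitted to log2(FPKM + 1), which understates changes of low genes: per line over 12 libraries with 6 contrasts, and over 24 libraries for the line difference. Whole fragments were recovered for 26449 of 26450 genes (within 0.01 of a whole number), for the voom alternative and depth. Tested on simulated data for 1 rpm against 2D, the fit recovered 99 of 100 2-fold changes in PANC-1 (11585 genes) and 99 of 100 in HEK293T (12548 genes), with 16 and 8 false calls among unchanged genes. The simulation used independent noise and few changed genes, equally up and down. It held no shift of whole libraries and no GC trend, so it cannot speak to the choice of scaling. The text names any of the 46 genes and, of each other list, genes among the 3 called with the largest change in a comparison, or others where it gives the reason. Alternatives were pseudocount 0.1, no filter, a mean of at least 5 FPKM, median-ratio scaling, quantile normalization, voom on fragments, fits on 2 formats alone, the replicate block, leaving out each library, and, added after the data were seen, removal of a GC and length trend (GENCODE v29 longest transcripts, natural splines, 5 degrees of freedom; values for all 46 genes). Python 3.11.15 with pandas 2.3.3, numpy 2.4.6 and matplotlib 3.10.9 was used. A result that the naming rule would give is not reported here.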

Additional observations from a re-analysis of the deposited data

Results flagged for a closer look

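The response to format differed between the lines by the test of the difference itself (HEK293T change minus PANC-1 change, limma). In AggreWell it was larger in HEK293T for 20 of the 46 genes and smaller for 9 (7 to 8 with 1 library left out). Of all genes, 32.0% were larger and 25.0% smaller there. In both rotating formats it was larger for 45 of 46 (45 at 1 rpm, 45 at 30 rpm), against 40.0% and 37.5% of all genes. FAM111B, at 0 in all HEK293T libraries, counts among these 45, and its difference only repeats its PANC-1 change. Genes called lower in PANC-1 and higher in HEK293T numbered 2 in AggreWell, 19 at 1 rpm and 17 at 30 rpm, where 3.90%, 8.34% and 9.10% of all genes tested in both lines did so. The AggreWell count is near that share, and was 6, 9 and 7 with median-ratio scaling, quantile normalization and the GC and length trend removed.

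The opposite calls in AggreWell were CDC6, with a difference of 0.53, and TK1, with 0.52. At 1 rpm the widest were MCM10 (2.56), CLSPN (2.51) and CDC6 (2.17). At 30 rpm they were MCM10 (2.41), PRIM1 (2.28) and CLSPN (2.20). The share of mitochondrial transcripts and the GC content of the rising genes moved with these results, as given above, and beyond the GC and length alternative their part was not tested.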

How the results depend on the processing

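Values are log2 changes unless called counts. Under alternatives 10923 values of the 46 genes were recomputed for 684 results. Of these values, 10543 kept a call in the same direction or stayed uncalled, whatever their sign. With the sign kept, 206 lost the call and 116 gained one. A further 58 changed sign where the main fit or the alternative had a call. Sign changes listed below are of this last kind. The causes were not tested.

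With median-ratio scaling the sign changed in PANC-1 AggreWell for POLD3 (−0.12) and at 30 rpm for ORC6 (−0.17) and RFC4 (−0.13). In HEK293T it changed in AggreWell for POLD1 (−0.0591), POLE2 (−0.13) and TYMS (−0.13), at 1 rpm for CDC6 (−0.0406), MCM6 (−0.00814), ORC1 (−0.13), PCNA (−0.11), RFC2 (−0.14) and RRM2 (−0.13), and at 30 rpm for CHAF1A (−0.10), PCNA (−0.0373) and RFC2 (−0.11). The count called higher went from 19 to 9 in HEK293T at 1 rpm and from 1 to 0 in PANC-1 at 30 rpm, where voom also gave 0.

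With quantile normalization the sign changed in PANC-1 for RRM2 in AggreWell (0.0768), RFC4 at 1 rpm (0.0135), ORC6 at 30 rpm (−0.12) and TYMS between speeds (−0.14). In HEK293T it changed in AggreWell for CDT1 (0.16), MCM3 (0.0863), MCM4 (0.0664), PCNA (0.21), POLE2 (−0.17), PRIM2 (−0.12) and RFC2 (0.0984), at 1 rpm for MCM3 (0.0212), POLD2 (0.13) and PRIM2 (−0.00130), and at 30 rpm for MCM4 (0.20) and POLD2 (0.27). The line difference in AggreWell changed sign for MCM4 (0.14), MCM7 (0.14) and RPA2 (0.0609), and its count of lower genes went from 9 to 4. The count of PANC-1 genes lower at 30 rpm than at 1 rpm went from 5 to 8, and with voom to 2.

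With the GC and length trend removed, chosen after seeing the data, the sign changed in PANC-1 AggreWell for PCNA (0.028), RPA1 (0.0783) and RRM2 (0.00347), at 1 rpm for RFC4 (0.22), at 30 rpm against AggreWell for POLD2 (−0.20), and between speeds for POLD1 (−0.0738) and TYMS (−0.0563). In HEK293T AggreWell it changed for CDC45 (0.0949), CHAF1B (0.0339), GINS2 (0.12), MCM3 (0.0735), PCNA (0.17), RFC2 (0.24) and RPA1 (0.0708), and 14 genes in place of 22 were called lower. It changed at 1 rpm for CHAF1A (0.025), MCM3 (0.00919), POLD2 (0.16) and RFC3 (−0.0823), at 30 rpm for MCM4 (0.0666), POLD2 (0.28) and RFC3 (−0.00377), and against AggreWell for CHAF1A at 1 rpm (0.13) and MCM5 (0.0909) and PRIM2 (−0.0423) at 30 rpm. In PANC-1 the count called higher became 1 at 1 rpm, 2 at 30 rpm and 1 at 30 rpm against AggreWell.

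Leaving out 1 library at a time, the count called higher in PANC-1 at 30 rpm ranged from 0 to 1 (0 without 2D replicate 3, 30 rpm replicate 1 or 30 rpm replicate 3), and against AggreWell from 0 to 1 (1 without 30 rpm replicate 3); the count lower at 30 rpm than at 1 rpm ranged from 4 to 6. PANC-1 genes lower at 1 rpm than 2D numbered 45 to 46, and the line difference stayed at 45 at both speeds. Some counts were less stable. Genes lower in AggreWell numbered 20 to 22 in PANC-1 (23 with all libraries) and 20 to 21 in HEK293T (22). The AggreWell line difference was smaller in HEK293T for 7 to 8 genes (9) and larger for 18 to 21 (20). HEK293T genes lower at 30 rpm than at 1 rpm numbered 9 to 13 (12).

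With the replicate block, genes called higher in HEK293T at 1 rpm numbered 20 in place of 19, against AggreWell 15 in place of 14, and between speeds 19 in place of 18. Genes called lower in PANC-1 and higher in HEK293T at 1 rpm numbered 20 in place of 19, with RFC2 added. The other counts of genes called higher or lower did not change. Deviations of same-numbered PANC-1 libraries correlated between −0.0916 and 0.106 (median −0.030), no higher than those of differently numbered ones (−0.169 to 0.181, median 0.016). In HEK293T same-numbered libraries correlated between −0.0966 and 0.430 (median 0.073), and differently numbered ones between −0.320 and 0.226 (median −0.036). The 0.430 was between replicate 2 of 2D and replicate 2 of 1 rpm. Some pairing by number in HEK293T is therefore possible and was not settled. With the block, RFC3 in HEK293T at 1 rpm had an adjusted p of 0.000847 (limma).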

Other observations

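In HEK293T 2 fork genes and 2 kinetochore genes with low 2D levels rose in AggreWell and further in rotation. The mitosis list as a whole split: of its 29 genes, 16 rose and 10 fell at 30 rpm, against 49.6% and 35.5% of all genes. In AggreWell, where 48.6% of all genes rose and 26.8% fell, PLK1 (−0.86), CCNB1 (−0.74) and CDC20 (−0.70) fell. They are named because they went against the kinetochore genes. In AggreWell ATAD5 stood at 3.78 FPKM, WDHD1 at 11.6, CENPE at 4.03 and CENPF at 8.34. At 30 rpm ATAD5 went from 0.902 to 10.6 FPKM (2.61 ± 0.06 on the log2 scale), WDHD1 from 2.68 to 23.9 (2.76 ± 0.05), CENPE, a kinetochore motor, from 1.29 to 12.8 (2.60 ± 0.09) and CENPF, a kinetochore protein, from 1.84 to 15.6 (2.55 ± 0.04). In PANC-1 AggreWell the same kinetochore genes rose, CENPF from 13.8 to 48.6 FPKM (1.74 ± 0.03) and CENPE from 3.78 to 13.4 (1.60 ± 0.05), along with ORC3, an origin recognition subunit, from 10.7 to 22.3 (0.99 ± 0.03) and ATR from 5.04 to 10.4 (0.92 ± 0.04).

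In PANC-1 at 30 rpm POLD4, the small subunit of polymerase delta, rose from 17.98 to 44.2 FPKM (1.25 ± 0.04). The kinase WEE1, which holds back entry into mitosis, rose from 21.2 to 44.4 (1.03 ± 0.03), and the CDK inhibitor CDKN1B from 14.2 to 73.2 (2.29 ± 0.05). NME1, a nucleoside diphosphate kinase, fell at 30 rpm in both lines, from 105 to 41.7 FPKM in PANC-1 (−1.31 ± 0.06) and from 75.6 to 29.4 in HEK293T (−1.34 ± 0.04). TFDP1 also fell in both, from 67.4 to 24.2 FPKM in PANC-1 (−1.44 ± 0.04) and from 82.9 to 34.6 in HEK293T (−1.24 ± 0.03).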
